A study of Mus musculus with 8 samples.

Results

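The genes described here encode the mitochondrial respiratory chain and the machinery that imports proteins into mitochondria. They were found by gene symbol in the deposited table of neuro2a (N2a) cells with knockdown of Grp94, as every row with a symbol that begins with Nduf, Uqcr, Atp5, Tomm, Timm or Cox and a digit, or that is Sdha, Sdhb, Sdhc, Sdhd or Cycs. This gave 17 of the 2395 transcript clusters in the table, a transcript cluster being the group of transcripts that the array measures as a unit. Values measured after the knockdown played no part in the rule, but the table itself holds only rows that passed the authors' limit of 0.01 on a corrected p-value, so every member had already been selected for a difference between the groups.

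N2a is a mouse neuroblastoma line. The labels give 8 samples of this line, 4 that received the control ("Vector knockdown" in the labels) and 4 with Grp94 knockdown, measured on Affymetrix Mouse Gene 1.0 ST arrays. Per the study's methods, miR RNAi vectors were delivered by lipid transfection and RNA was taken 2 days later. The control was an empty vector by the series' design text, while the methods name an empty and a non-targeting vector as controls and more than 1 Grp94 construct. Which of them each array carried is not given in the sources used here, nor is whether the samples were separate cultures.

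The respiratory chain passes electrons from complexes I and II through complex III and cytochrome c to oxygen at complex IV, and complex V uses the resulting proton gradient to make ATP. Most subunits are encoded in the nucleus, made in the cytosol and imported through the TOM complex of the outer membrane and the TIM complexes of the inner membrane. Several subunits of complex IV have alternative isoforms that are used mainly in certain tissues, such as muscle, or at low oxygen.

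The table gives 1 mean per group on a log2 scale, centred by the authors for each transcript cluster. Such means keep the difference between the groups and hold no level of expression, so neither the levels of different members nor the markers of the cell line could be checked. The spread between arrays was not used here, and no error or p-value is given. The unit below is the log2 difference, that is, the authors' knockdown mean less their empty vector mean. In RNA from whole cultures, a change in fewer cells and a smaller change in every cell cannot be told apart. Of the 10 markers of N2a cells looked for, 5 were listed. Of these, 4 were lower and 1 was higher, where 59.9% of all listed rows were lower. The higher one was Dbh, an enzyme of noradrenaline synthesis, with a log2 difference of 0.49. Th, another enzyme of that synthesis, had -0.12. The neuronal growth proteins Gap43 and Stmn2 had -0.20 and -0.17, and Map2 (listed as Mtap2) had -0.17. No marker of astrocytes, microglia, oligodendrocytes or fibroblasts was listed.

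The knockdown target showed the direction that the labels imply. Hsp90b1, the gene for the endoplasmic reticulum chaperone Grp94, had a mean of 0.74 in the empty vector group and of -0.78 in the knockdown group, a log2 difference of -1.52.

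Of the 17 members, 11 (64.7%) were lower in the knockdown and the other 6 were higher, where 59.9% of all listed transcript clusters were lower. The share of lower members was thus near that of the table. Their median log2 difference was -0.11, beside -0.16 for the whole table. When the differences were re-centred on that median of -0.16, 7 members (41.2%) were lower and 10 were higher, and by construction 1197 listed rows lay on each side. The members that turned were Sdhb, Ndufa8, Ndufv1 and Cox5a, among 236 rows of the table that turned. The smallest decrease of any listed row was 0.05 in size and the smallest increase was 0.03, so the original zero falls in a gap of the table and the re-centred zero does not. The median used is that of rows selected for a difference, not of all genes on the array. Re-centring therefore cannot decide the direction of a member.

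Past a fold of 1.3, a log2 difference of 0.38 in size, 5 members (29.4%) were lower and 2 members (11.8%) were higher. Over all listed rows, 16.1% passed that fold as decreases and 6.26% as increases. The 5 lower members were Cox6a2, Cox4i2, Cox7a1, Ndufa4l2 and Ndufv3, and the 2 higher members were Timm8b and Ndufb6, each measured by a cluster that also carries another gene. The lower ones other than Ndufv3 are all isoforms or paralogs of complex IV subunits with restricted expression.

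**Figure D1:**
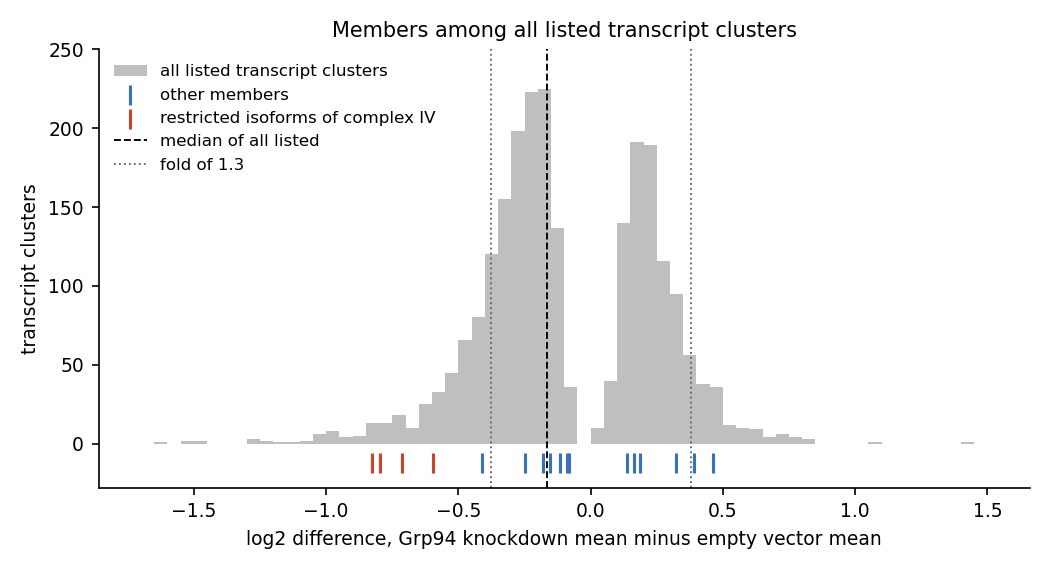
Number of transcript clusters (vertical axis) by log2 difference, Grp94 knockdown mean minus empty vector mean (horizontal axis), for all 2395 listed rows (grey), with the 17 members as ticks beneath. The 4 restricted isoforms of complex IV (red ticks) lie between -0.83 and -0.60, and the other 13 members (blue ticks) lie between -0.41 and 0.46; 4 of those to the left of 0 lie to the right of the dashed median of all listed rows.

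Complex IV, cytochrome c oxidase, had the most listed members and the largest differences. Of the 29 protein-coding genes that the rule assigns to it in the RefSeq gene table of GRCm38, 8 were listed. Of these, 6 were lower and 2 higher, where 59.9% of all listed rows were lower. Their median log2 difference was -0.39 (-0.22 after re-centring). Without the Cox6c cluster, which carries a second symbol, the median was -0.60. The members divided by kind. The 4 restricted isoforms had log2 differences from -0.83 to -0.60 and kept this direction after re-centring, while the 4 other subunits ranged from -0.18 to 0.18. The division into restricted and other isoforms was made with earlier results of these data known.

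Cox6a2 is the heart and skeletal muscle counterpart of Cox6a1, a nuclear-encoded subunit of the oxidase. Its centred log2 mean was 0.48 in the empty vector, against -0.34 after knockdown. The log2 difference of -0.83, a 1.77-fold lower mean, ranked 42nd among the decreases in the table, and it was -0.66 relative to the table's median. Its transcript cluster lies on chromosome 7 (135348949 to 135349880, 25 probes).

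Cox4i2 encodes the isoform of subunit IV that is abundant in lung and can replace Cox4i1 when oxygen is low. Its mean was 0.33 in the empty vector and -0.47 after knockdown. The log2 difference was -0.80 (1.74-fold lower, -0.63 relative to the table's median), for a cluster on chromosome 2 (152579909 to 152590773, 30 probes). Cox7a1, the muscle counterpart of Cox7a2, had means of 0.33 and -0.38 and a log2 difference of -0.71 (1.64-fold lower, -0.55 relative to the median), on chromosome 7 (30969190 to 30971049, 25 probes). Cox6a2 and Cox7a1 share a chromosome and are far apart on it.

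Ndufa4l2 is the paralog of Ndufa4 that is induced by low oxygen in many cells. Its mean was 0.36 in the empty vector and -0.24 after knockdown, a log2 difference of -0.60 (1.51-fold lower, -0.43 relative to the median), on chromosome 10 (126952034 to 126954210, 28 probes). Ndufa4 itself, named for complex I but found as a subunit of complex IV, had means of 0.09 and -0.09. Its log2 difference was -0.18, or -0.01 after re-centring, and Ndufa4l2 minus Ndufa4 gave -0.42. The other common counterparts Cox4i1, Cox6a1 and Cox7a2 were not listed, so nothing is known here of their change, and of the 8 restricted isoforms in the gene table the remaining ones, Cox6b2, Cox7b2, Cox8b and Cox8c, were not listed either.

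The remaining complex IV members differed little. Cox5a, a subunit on the matrix side that contacts subunit IV, had means of 0.04 and -0.04 and the smallest difference of all members, -0.08, which re-centring turned to 0.08. Cox8a, a small membrane-spanning subunit, was higher, with means of -0.06 and 0.12 and a log2 difference of 0.18. The cluster named for Cox6c, another membrane-spanning subunit, had means of -0.07 and 0.06 and a log2 difference of 0.14, but it carries the symbol Gm6265 as well. It lies on chromosome 12, where RefSeq places this pseudogene (now named Cox6c2), while RefSeq places Cox6c on chromosome 15. Whether Cox6c itself was measured is therefore unknown.

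**Figure D2:**
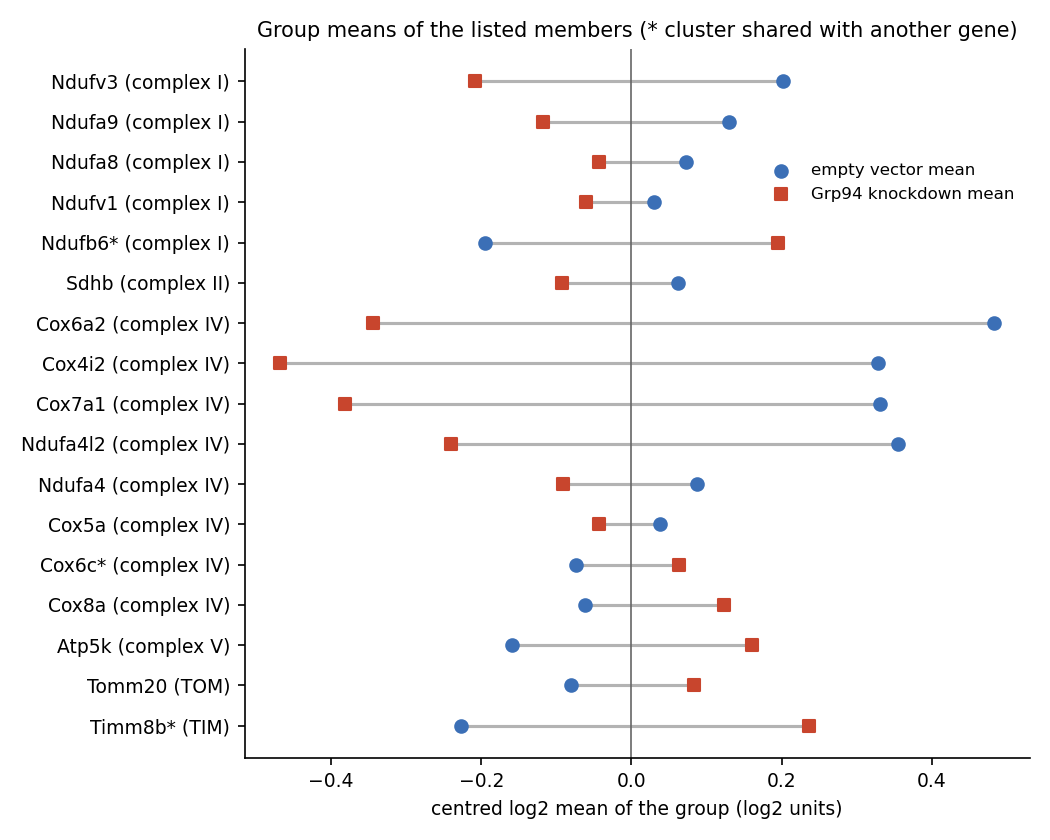
Centred log2 mean of the empty vector group (blue circles) and of the Grp94 knockdown group (red squares) for each of the 17 members, ordered by complex; an asterisk marks clusters shared with another gene, and a grey line joins the 2 means of a member. Cox6a2, Cox4i2, Cox7a1 and Ndufa4l2 have the widest gaps, with log2 differences from -0.83 to -0.60. Means of different members cannot be compared as levels. Re-centred on the median of all listed rows, 4 of the narrow decreases (Ndufa8, Ndufv1, Sdhb, Cox5a) take values above 0, but that median is of rows selected for a difference.

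Complex I, the NADH dehydrogenase that feeds electrons into the chain, had 5 listed members out of 46 protein-coding genes of the rule. Of these, 4 were lower and 1 was higher, where 59.9% of all listed rows were lower. The median log2 difference was -0.11, and re-centring reversed it to 0.050. Ndufv3, an accessory subunit of the NADH-oxidising module, was the only one lower past a fold of 1.3, with means of 0.20 and -0.21 and a log2 difference of -0.41 (chromosome 17, 31657095 to 31668271, 26 probes). Re-centring left it at -0.25, still lower but no longer past that fold.

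Ndufa9, an accessory subunit at the junction of the membrane arm and the peripheral arm, had means of 0.13 and -0.12 and a log2 difference of -0.25 (-0.08 after re-centring). Ndufa8, an accessory subunit that faces the intermembrane space, had means of 0.07 and -0.04 and a log2 difference of -0.11. Ndufv1, the flavin-bearing core subunit that binds NADH, had means of 0.03 and -0.06. Its log2 difference of -0.09 was among the smallest in the table, ranking 2337th of 2395 by size, and re-centring turned it to 0.07 and that of Ndufa8 to 0.05. The other 6 core subunits among the rule's genes were not listed, and neither were the 9 assembly factors.

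The cluster named for Ndufb6, an accessory subunit of the membrane arm, was the only complex I row that was higher, with means of -0.20 and 0.20 and a log2 difference of 0.39. It also carries 2010003O02Rik, now named Smim27. The cluster lies on the plus strand of chromosome 4 (40216614 to 40217973, 25 probes), whereas RefSeq has Ndufb6 on the minus strand and its neighbour Smim27 on the plus strand. By strand the cluster thus matches Smim27 and not Ndufb6. From these annotations the value cannot be credited to Ndufb6, and which gene the probes read was not tested. Without this row the 4 remaining complex I members had a median of -0.18.

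Complex II, which takes electrons from succinate, was represented by Sdhb, its iron-sulfur subunit. Sdhb had means of 0.06 and -0.09 and a log2 difference of -0.15 (chromosome 4, 140517186 to 140535110, 26 probes), which lay so close to the table's median that re-centring left 0.010. The other 3 subunits were not listed. Complex III had none of its 8 rule genes listed, and cytochrome c (Cycs) was not listed. No statement about these can be made from the table.

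Complex V, the ATP synthase, had 1 of 17 genes listed and it was higher. Atp5k, subunit e of the membrane-embedded part, had means of -0.16 and 0.16 and a log2 difference of 0.32, short of a fold of 1.3 (chromosome 5, 108862272 to 108863405). With 17 probes its cluster had the fewest of any member. RefSeq holds 4 pseudogenes named for it, and whether they share its probes was not tested. None of the 5 subunits of the catalytic F1 part was listed.

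The import machinery had 1 listed gene of 10 for TOM and 1 of 15 for TIM, both higher. Tomm20, the receptor that recognises the targeting sequence of many imported proteins, had means of -0.08 and 0.08 and a log2 difference of 0.16 (chromosome 8, 129458452 to 129469730, 44 probes). Timm8b, a small chaperone that guides membrane proteins across the intermembrane space, had means of -0.23 and 0.24 and a log2 difference of 0.46, the largest increase among the members. Its cluster (chromosome 9, 50412018 to 50422297, 42 probes) carries AU019823 too, now named Nkapd1 and overlapping the end of Timm8b in RefSeq, so the genes cannot be told apart. The cluster spans 10280 bases, more than Timm8b has in RefSeq (50603901 to 50605320). No component of the TIM23 or TIM22 channel was listed.

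All 3 members that share a cluster with another gene were higher, and none of the 11 lower members shared a cluster. Among the 14 members with a symbol of their own, 11 were lower and 3 were higher, namely Cox8a, Atp5k and Tomm20, and none was higher past a fold of 1.3. Among all listed clusters with several symbols, 59.3% were lower, close to the 60.3% of those with a single symbol. The small number of members limits what this shows, and the part of shared probes in the direction was not tested.

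Side by side, the medians were -0.39 for the 8 rows of complex IV (-0.60 without its shared cluster) and -0.11 for the 5 rows of complex I (-0.18 without its shared cluster). The only row of complex II had -0.15, and the single rows of complex V, TOM and TIM had 0.32, 0.16 and 0.46. The TIM row is itself a cluster shared with another gene. These are descriptions without a test, and the complexes are not equally covered. Apart from the 4 restricted isoforms, the 13 remaining members were 7 lower and 6 higher with a median of -0.08, or 3 lower and 10 higher after re-centring. Of all listed rows, 59.9% were lower, and after re-centring 1197 lay on each side. The 6 higher rows include the shared clusters of Ndufb6, Cox6c and Timm8b. Setting aside the 4 largest decreases, grouped with earlier results known, raises the share of higher members by construction.

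A gene counted today by the same prefix was listed under an older name. 2310016M24Rik, now Cox14, an assembly factor of complex IV, had means of -0.11 and 0.17 and a log2 difference of 0.28. It was left out of the counts above, which follow the table's symbols. No gene listed under its present symbol was one of the 18 assembly factors that the rule takes in.

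Genes of the pathway that the rule does not cover were read from a fixed list of 55 symbols for other subunits, assembly factors and quinone synthesis. Of these, 10 were listed, 4 lower and 6 higher (3 and 7 after re-centring), where 59.9% of all listed rows were lower. Past a fold of 1.3 there were 2 lower and 3 higher. Over all listed rows, 16.1% passed that fold as decreases and 6.26% as increases, and 10 rows are too few to set a share against these. Higd1a, a hypoxia-induced factor associated with the respiratory chain, had a log2 difference of -0.62, on a cluster shared with Gm9790. The cluster lies on chromosome 3, where RefSeq places that pseudogene, while Higd1a is on chromosome 9, so it remains unknown whether Higd1a itself was measured. Coq9, required for the synthesis of coenzyme Q, had -0.47, with means of 0.24 in the empty vector and -0.24 after knockdown.

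The increases in that list were led by Higd2a, a paralog of Higd1a that acts in assembly, with a log2 difference of 0.46. Sdhaf1 and Acn9 (now Sdhaf3), both assembly factors that act on the iron-sulfur subunit of complex II, had 0.44 and 0.40, and Sdhaf1 shares its cluster with E130208F15Rik. Their client Sdhb, as given above, had -0.15. Sdhaf2, which attaches flavin to Sdha, had 0.19. Of 25 further import genes, Immp1l, a peptidase subunit of the inner membrane, had 0.30 and Romo1 had 0.17, and no other was listed. The Immp1l cluster lies on chromosome 5, and its place was not compared with RefSeq. Whether Immp1l itself was measured was not tested.

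**Figure D3:**
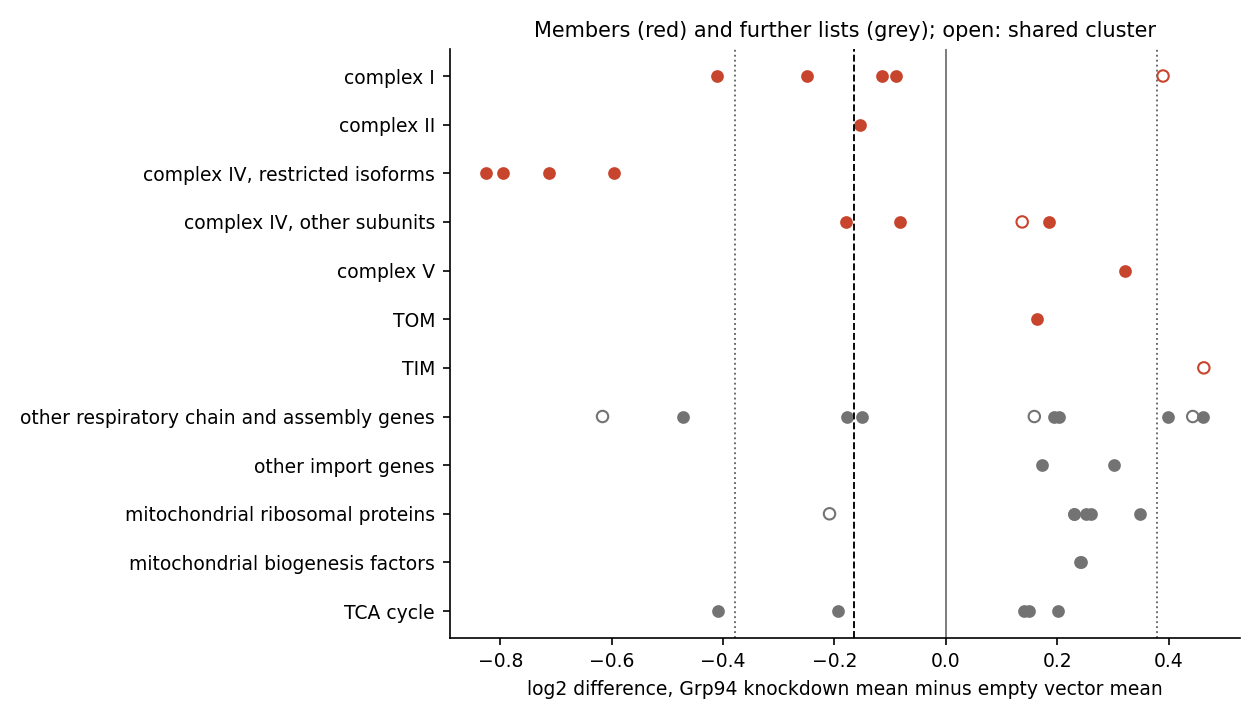
Log2 difference (horizontal axis, Grp94 knockdown mean minus empty vector mean) of every listed member by complex (red) and of the further mitochondrial lists (grey), with open symbols for clusters shared with another gene, dotted lines at a fold of 1.3 and a dashed line at the median of all listed rows, -0.16. The restricted isoforms of complex IV lie at -0.60 and below, and complex V, TOM, TIM and most mitochondrial ribosomal proteins lie above 0. The members between the dashed line and 0 (Ndufa8, Ndufv1, Sdhb and Cox5a) take values above 0 when re-centred on that median of selected rows.

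Promoter sequences show what letters lie near the start sites of members that were lower and of members that were higher. RefSeq promoters of GRCm38.p6, 250 bases before to 50 bases after the start, were held for 13 members, 8 lower and 5 higher, each with 1 entry. The 5 higher ones include Ndufb6 and Timm8b, whose clusters carry another gene. Their values may therefore not belong to the genes whose promoters were read. The 4 shown are the single member among the restricted isoforms with an entry (Cox7a1), the complex I member with the largest decrease (Ndufv3), and the higher members with a symbol of their own and the largest increases (Atp5k and Cox8a). Capitals mark every match, on either strand, to the 6 motifs described in the next paragraph. Cox7a1 is at chr7:30183921-30184220 (plus strand), Ndufv3 at chr17:31519865-31520164 (plus strand), Atp5k at chr5:108434350-108434649 (minus strand) and Cox8a at chr19:7217567-7217866 (minus strand).
Cox7a1: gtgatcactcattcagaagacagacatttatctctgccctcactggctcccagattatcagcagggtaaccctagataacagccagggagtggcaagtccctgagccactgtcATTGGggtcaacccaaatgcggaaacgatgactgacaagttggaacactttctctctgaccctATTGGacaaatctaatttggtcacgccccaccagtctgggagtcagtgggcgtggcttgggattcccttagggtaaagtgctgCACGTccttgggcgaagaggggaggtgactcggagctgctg
Ndufv3: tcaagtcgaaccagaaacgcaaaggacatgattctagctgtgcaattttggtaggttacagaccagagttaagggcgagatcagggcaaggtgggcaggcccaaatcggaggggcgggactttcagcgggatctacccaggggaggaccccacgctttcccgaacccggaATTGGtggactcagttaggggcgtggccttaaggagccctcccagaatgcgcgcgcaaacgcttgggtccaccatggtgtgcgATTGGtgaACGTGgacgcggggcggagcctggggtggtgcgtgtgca
Atp5k: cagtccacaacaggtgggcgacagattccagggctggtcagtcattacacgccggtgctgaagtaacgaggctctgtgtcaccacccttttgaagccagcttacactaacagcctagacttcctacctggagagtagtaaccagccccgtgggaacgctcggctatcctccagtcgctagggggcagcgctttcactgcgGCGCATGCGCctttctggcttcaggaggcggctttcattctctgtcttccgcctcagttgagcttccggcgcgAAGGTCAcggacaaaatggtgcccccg
Cox8a: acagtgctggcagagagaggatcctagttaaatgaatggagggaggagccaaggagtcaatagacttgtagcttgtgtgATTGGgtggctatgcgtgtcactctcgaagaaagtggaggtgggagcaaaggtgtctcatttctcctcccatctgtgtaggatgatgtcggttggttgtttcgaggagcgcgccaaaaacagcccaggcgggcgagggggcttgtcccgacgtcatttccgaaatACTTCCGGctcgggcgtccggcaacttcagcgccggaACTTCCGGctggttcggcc

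The motifs were short cores of sites for regulators of respiratory genes and for NF-Y and HIF, namely GCATGCGC for NRF1, CCGGAAGT for ETS factors and AAGATGGC for YY1. The estrogen-related receptors (ERR) were searched by AAGGTCA. The ubiquitous promoter factor NF-Y was searched by CCAAT, and the hypoxia-inducible factor HIF by ACGTG. Matches on both strands overlapped each other for NRF1 in Atp5k and for HIF in Ndufv1 and Tomm20, and matches to different motifs did not overlap. Cox7a1 held CCAAT on the minus strand at -137 and -74 and ACGTG on the minus strand at 9, counting the start as 0 and giving each match by its leftmost base. Ndufv3 held CCAAT on the minus strand at -80 and 3 and ACGTG on the plus strand at 11. Atp5k held the NRF1 core, whose leftmost match begins at -50, and the ERR core, while Cox8a held the ETS core at 2 places, both on the minus strand, and CCAAT.

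The HIF core ACGTG was in 5 of the 13 member promoters (38.5%). It was in 25.4% of the 118 promoters held for 110 genes of the rule, and in 19.6% of all 32851 promoters. Among members, ACGTG was in 4 of the 8 lower ones (Cox7a1, Ndufv3, Ndufv1 and Cox5a) and in Tomm20 of the 5 higher ones, and re-centring turns Ndufv1 and Cox5a to higher. CCAAT was in 30.8% of member promoters, in 39.0% of the rule's promoters and in 37.4% of all promoters. The NRF1 core was in Sdhb, Ndufa8 and Atp5k, 23.1% of member promoters beside 11.9% of the rule's promoters and 2.71% of all promoters. The ERR core was in Atp5k and Timm8b, 15.4% of member promoters beside 9.32% of the rule's promoters and 4.72% of all promoters. Both are counted as higher, but the Timm8b value comes from a cluster shared with another gene. The ETS core was in Cox8a and the YY1 core in Ndufa9 only, each 7.69% of member promoters. The ETS core was in 13.6% of the rule's promoters and 3.89% of all promoters, and the YY1 core in 11.9% and 2.75%. Of the members, 2, Ndufa4 and Ndufb6, held no motif. With 13 promoters, a single gene makes 7.69% of the members, so these shares are descriptions, and a match is not a bound site.

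**Figure D4:**
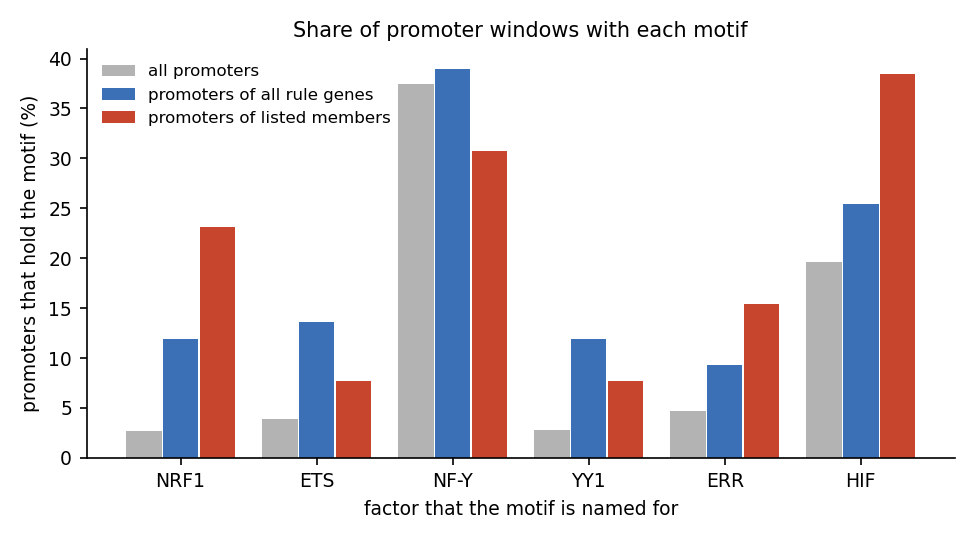
Percent of promoter windows (vertical axis, from 0) that hold each motif (horizontal axis) among all 32851 RefSeq promoters (grey), the 118 promoters held for genes of the rule (blue) and the 13 promoters of listed members (red). The NRF1 core is in 2.71% of all promoters, 11.9% of the rule's and 23.1% of the members', and ACGTG in 19.6%, 25.4% and 38.5%, where 1 member is 7.69%.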

How the data were processed

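RNA from the transfected N2a cultures was measured on 8 arrays (Affymetrix Mouse Gene 1.0 ST), and the authors analysed the data in Agilent GeneSpring GX. Genes under the 20th percentile of expression were left out by the authors. Summarization, normalization, software version and genome build are not given in the sources used here, and positions are those of the table. The deposited file holds log2 means per group, centred by the authors for each transcript cluster. It also holds p-values, corrected p-values and fold changes of the authors' own comparison, which were not used beyond a check that no row exceeds a corrected p of 0.01 and that the difference of both means equals the log2 change within 1e-05 in all rows.

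Rows were selected by symbol, and the log2 difference was the knockdown mean minus the empty vector mean. Counts past a fold of 1.3 and medians were set beside those of all 2395 rows, and since there is 1 value per group no test was run. Among them, 258 rows carry several symbols and 44 none. The members, complexes, roles and further lists were chosen with earlier results of these data known. The text names Hsp90b1, every member and the 3 listed genes of largest difference in each further list, with a few more named beside them after their values were seen. All 17 members were matched to the RefSeq gene table of GRCm38 by Entrez identifier, 16 on the same chromosome, and 12 of 13 with a known strand on the same strand.

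Alternatives changed the fold threshold (1.2 and 1.5), the rows with several symbols, the unit of counting, the zero point and the members kept. Counting Cox14 in and counting Ndufa4 and Ndufa4l2 under complex I were added after the data were seen. Python 3.11.15, numpy 2.4.6, pandas 2.3.3 and matplotlib 3.10.9 were used, and the scripts were tested on simulated data.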

Additional observations from a re-analysis of the deposited data

How the results depend on the processing

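No paired analysis was possible because the table gives 1 mean per group and no value per array, and for the same reason no array could be left out in turn. Of 46 alternative values, 28 stayed the same, counts within 1.5 times and medians within 0.005 log2 units, 15 moved and 3 reversed. Re-centring on the median of all listed rows gave 7 lower and 10 higher members. It reversed the median of all members to 0.050, of complex I to 0.050 and of complex II to 0.010, and moved that of complex IV to -0.22, of complex V to 0.49, of TOM to 0.33 and of TIM to 0.63. By construction it shifts every value up by the same amount. Rows of 1 symbol alone left 3 higher members, 0 of them past a fold of 1.3, and medians of -0.17 for all members, -0.18 for complex I and -0.60 for complex IV, and no row for TIM. A fold of 1.5 left 0 higher members, and 4 lower ones, the restricted isoforms of complex IV. The share of all listed rows past a fold of 1.5 was not counted, so these numbers have no background to be set against. Counting Cox14 in gave a median of -0.10, and counting Ndufa4 and Ndufa4l2 under complex I gave -0.18 for complex I and -0.40 for complex IV.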

Other observations

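Other mitochondrial genes were listed in small numbers. Of 78 genes for mitochondrial ribosomal proteins in the RefSeq gene table, which carry out translation inside mitochondria, 6 were listed. Of these, 1 was lower and 5 were higher, where 59.9% of all listed rows were lower. These counts were the same after re-centring, where 1197 listed rows lay on each side. So few as 6 rows do not allow a share to be set against that of all rows. The median log2 difference was 0.24, and none passed a fold of 1.3. Over all listed rows, 16.1% passed that fold as decreases and 6.26% as increases. The largest were those of Mrpl36 (0.35), Mrpl41 (0.26) and Mrpl17 (0.25), and the lower row, Mrps10 at -0.21, had 8 probes and was shared with Tmem232. The Mrpl41 cluster lies on chromosome 7. The places of these ribosomal clusters were not compared with RefSeq, so whether each reads the named gene is unknown. Of 23 biogenesis factors only Tfb2m, a factor of mitochondrial transcription, was listed, on a pair of clusters on chromosomes 1 and 12 with log2 differences of 0.24 each, and RefSeq places the gene on chromosome 1.

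Of 20 genes of the citric acid cycle and its entry reactions, 4 were listed on 5 clusters. Pcx, which makes oxaloacetate from pyruvate, had a log2 difference of -0.41 and was the only one past a fold of 1.3. Me2, the mitochondrial malic enzyme, had -0.19. Suclg2, a subunit of succinyl-CoA ligase, had 0.20 and 0.15 on clusters of chromosomes 6, where RefSeq places it, and X, and Ogdh had 0.14. No difference in this paragraph or the one before it has a test here.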
